A study of Homo sapiens with 6 samples.

Results

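The data concern 45 human genes whose very long transcripts encode giant proteins, among them the ubiquitin ligase gene HUWE1, the nesprin genes SYNE1 and SYNE2 and the DNA repair kinase genes ATM, ATR and PRKDC. The genes were taken by symbol, and each matched 1 row of a table of 30960 genes. The list was drawn up with results of the PKI and inPKI comparison known, as a probe of a trend of that comparison with transcript length. Differences between the groups are therefore given for these genes as a description and not as a test. All 45 passed the filter on low values, at least 1 CPM (reads scaled to the size of the library) in at least 3 of the 6 libraries, as did 14275 genes in all.

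The cells were HEK293, an established line from human embryonic kidney. They were transfected with 158 ng of plasmid per square centimetre, and RNA was taken at 48 h. One group, PKI, carried a plasmid for a GFP fusion of PKI1-24, and the control group, inPKI, carried a plasmid for a GFP fusion of inPKI1-24. PKI proteins are natural inhibitors of PKA, the protein kinase that cAMP switches on. Both groups carried GFP and transfected plasmid, with 3 libraries each, lettered A to C. Untransfected cells were not analysed here, and nothing in the labels gives the share of cells that took up plasmid or whether separate cultures were used. P-values then measure only the spread between these libraries, which may be technical. In RNA from a whole culture, fewer cells expressing a gene and less RNA per cell cannot be told apart.

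Giant proteins are built as long arrays of repeats or as chains of many domains, and they work as scaffolds, mechanical linkers, lipid conduits or very large enzymes. Their mRNAs take long to transcribe and are translated by many ribosomes at once. PKA itself acts on transcription mainly by phosphorylating CREB, which binds the cAMP response element.

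The gene models bore out the label. In GENCODE 29, with the transcript of longest coding sequence taken for each gene, the 45 transcripts ran from 7498 nt for SPTAN1 to 27748 nt for SYNE1, with a median of 14094 nt, and the proteins from 2366 residues for SPTBN1 to 8797 for SYNE1, with a median of 4022. The medians of the 12482 protein-coding genes tested were 3188.5 nt and 481.5 residues. The shortest of the 45 transcripts was longer than 91.0% of those of tested coding genes, and the protein with the fewest residues was longer than 98.1%. The genes had little else in common in their structure. They lie on 16 chromosomes, their transcripts have 5 exons (AHNAK) to 146 exons (SYNE1), and the GC content runs from 36.3% (BRCA2) to 67.0% (PLEC). Which isoform these cells express was not determined, and for some genes the chosen model holds almost no untranslated sequence, with 4 such nt in SPTAN1 and 48 in DST.

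The libraries held 17244715 to 23589438 reads, recovered from the CPM values. PKI C was the library with the fewest reads, and its CPM summed to 754299, against 773801 to 785007 in the other libraries. Most markers of other cell types were low. Of 19 leukocyte, fibroblast, keratinocyte, endothelial and hepatocyte genes, 14 stayed below 1 CPM in every library, and the 19 summed to 36.4 to 58.5 CPM in inPKI and 36.4 to 41.7 CPM in PKI. Among the defining markers CD3E, DCN and APOB were at 0 in all 6 libraries, and the highest sum was that of keratinocyte genes in inPKI C, at 39.7 CPM. The part of these markers in the results below was not tested.

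In these libraries 45 of the 45 genes had a log2 change above 0, that is, a higher mean of log2(CPM + 1) in PKI than in inPKI. A log2 change above 0 was found in 47.4% of all genes tested. Summed over the 45 genes, the level was 4771, 4561 and 4709 CPM in the inPKI libraries A to C and 5394, 5173 and 5865 CPM in the PKI libraries A to C, or 4680 ± 108 and 5477 ± 354 CPM (SD, n = 3 each). All 3 PKI sums lay above all 3 inPKI sums, and PKI C was the highest. The differences were small. The ratio of mean CPM, PKI over inPKI, ran from 1.04 to 1.40 with a median of 1.17, and the log2 change ran from 0.052 to 0.47 with a median of 0.23, where the median of all genes tested was -0.0074.

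In 41 of the 45 genes each PKI library lay above each inPKI library, an order found in 10.9% of all genes tested. The exceptions were ATR, FAT3, CHD8 and AHNAK. The same order was found in 60.1% of the 158 other coding genes tested with transcripts over 10000 nt and 2000 or more residues. It was also found in 68.6% of the 51 other genes of very long transcripts described below. The reverse order, each PKI library below each inPKI library, was found in 0 of the 45 and in 8.88% of all genes. Not one of the 45 passed an adjusted p of 0.05 in limma over all genes, where 0.0981% of genes were called higher, and 39 had an unadjusted p below 0.05 with a higher level in PKI, where 7.53% of all genes did. The adjusted p of the 45 ran from 0.0504 for SYNE2 to 0.723 for ATR. The count of calls depended on the test: on the recovered reads edgeR called 0 of the 45 (0.0701% of all genes higher) and DESeq2 20 (0.771%). Since the list was chosen on this contrast, nothing is read from these shares.

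**Figure D1:**
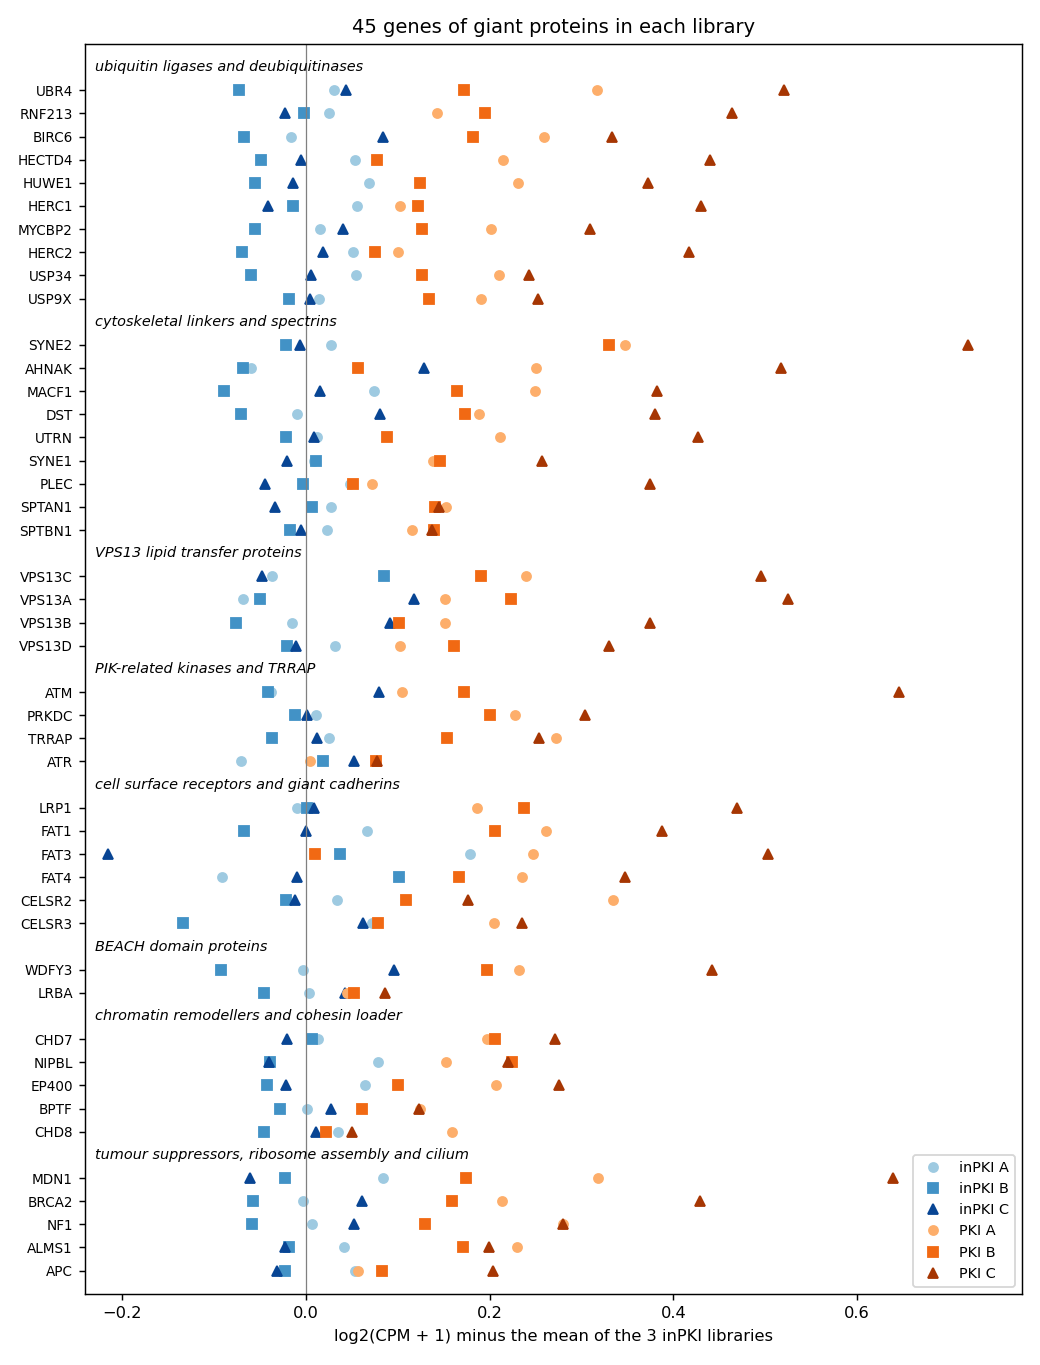
Each of the 45 genes (rows, grouped by the role of the protein) in each of the 6 libraries (points), as log2(CPM + 1) minus the mean of the 3 inPKI libraries. The PKI points lie to the right of the inPKI points in 41 genes, and PKI C is the rightmost point in 36.

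Since PKA acts through CREB, promoters of the list were searched for the palindromic cAMP response element, TGACGTCA, which reads the same on both strands. RefSeq promoter windows (GRCh38.p14, 250 bases before to 50 after each start) were at hand for 35 of the 45 genes, 55 windows in all. The element stood in 3 of the 55 windows (5.45%), against 649 of all 35116 windows (1.85%). The 3 sites are shown with 10 bases on either side, 5′ to 3′ on the strand of the gene and the element in capitals.
FAT1 (chr4:186726735-186726762, minus strand): ggcggggcgcTGACGTCAcctcccctcc
MDN1 (chr6:89819775-89819802, minus strand): cccgagctgaTGACGTCAaacgccgtgt
NF1 (chr17:31094801-31094828, plus strand): aggagttagaTGACGTCAcctccaggag
The first base of the element lies 56 bases before the annotated start in FAT1 and 166 before it in NF1, and in MDN1 it is base 3 of the transcript. These genes had log2 changes of 0.28, 0.38 and 0.23, toward higher levels in PKI, a direction shared by all 45 genes with or without the element. A match of letters is a description and does not show that CREB binds there.

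Ubiquitin ligases and deubiquitinases formed the largest group, with 10 genes. Ligases attach ubiquitin to proteins, often to mark them for the proteasome, and deubiquitinases take it off. In all 10 the groups did not overlap, with PKI above inPKI, and the median log2 change was 0.23 (range 0.19 to 0.34). This order was found in 41 of the 45 genes, in 10.9% of all genes tested and in 60.1% of the 158 other long coding genes named above. The same shares stand beside the counts of each role group below, which are not read as traits of a family. HUWE1, a HECT-type ligase, measured 538, 493 and 508 CPM in the inPKI libraries A to C and 601, 559 and 664 CPM in the PKI libraries A to C, the order kept for every gene that follows. Its lowest PKI library, B, stood above its highest inPKI library, A. The log2 change was 0.24 ± 0.073 (SE), adjusted p = 0.184 in limma. UBR4, a ligase that recognises destabilising protein ends, measured 205, 191 and 207 CPM in inPKI and 251, 227 and 289 CPM in PKI, and its log2 change of 0.34 ± 0.075 was the largest of the group. Here PKI C stood far above PKI B, so that the PKI libraries spread more widely than the inPKI libraries did. USP9X, a deubiquitinase, measured 279, 273 and 277 CPM in inPKI and 315, 303 and 329 CPM in PKI, with the smallest log2 change of the group, 0.19 ± 0.056, and little spread within inPKI. The others were BIRC6, an inhibitor of apoptosis that is itself a ubiquitin-conjugating enzyme (log2 change 0.26), RNF213 (0.27), HECTD4 (0.24), HERC1 (0.22), MYCBP2 (0.21), HERC2 (0.20) and USP34 (0.19). Without PKI C the log2 changes of 4 of these were smaller by over 1.5 times, at 0.17 ± 0.048 for RNF213, 0.15 ± 0.054 for HECTD4, 0.11 ± 0.053 for HERC1 and 0.088 ± 0.044 for HERC2. HERC2 has partial copies elsewhere in the genome, and its reads are uncertain for that reason.

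The 9 cytoskeletal linkers and spectrins held both the largest difference and some of the smallest. These proteins tie actin, microtubules, intermediate filaments, membranes and the nuclear envelope to each other. Their median log2 change was 0.24 (range 0.13 to 0.47), and the groups did not overlap in 8 of the 9. SYNE2, a nesprin that anchors the nucleus to the cytoskeleton, measured 33.0, 31.9 and 32.2 CPM in inPKI and 41.4, 40.9 and 54.0 CPM in PKI. All 3 PKI libraries stood clear of the narrow inPKI range, with PKI C highest, and the log2 change of 0.47 ± 0.086 (adjusted p = 0.0504 in limma) was the largest of the 45. Without PKI C it was 0.34 ± 0.053, with an adjusted p of 0.0161 in limma. With inPKI A, B or C left out instead, the adjusted p in limma was 0.190, 0.259 and 0.140. SYNE1, the other nesprin of the list and the longest transcript of all, measured 19.7, 19.7 and 19.3 CPM in inPKI and 21.6, 21.8 and 23.6 CPM in PKI (0.18 ± 0.067). The spectrins, which form the membrane skeleton, differed less: SPTBN1, the beta chain, measured 189, 184 and 185 CPM in inPKI and 201, 205 and 204 CPM in PKI. SPTAN1, the alpha chain, measured 181, 179 and 174 CPM in inPKI and 198, 196 and 197 CPM in PKI. The log2 changes were 0.13 ± 0.050 and 0.15 ± 0.051, and in both genes the 3 PKI libraries lay close together, PKI C included. The spectraplakins MACF1 (0.27) and DST (0.25), which cross-link actin and microtubules, the dystrophin relative UTRN (0.24), the plakin PLEC (0.17) and the scaffold AHNAK (0.28) make up the rest. Without PKI C these last 3 had 0.15 ± 0.051, 0.062 ± 0.044 and 0.15 ± 0.067. In AHNAK, whose coding sequence lies almost wholly in 1 exon, PKI B at 52.8 CPM lay below inPKI C at 55.6 CPM.

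VPS13 proteins are rod-shaped conduits that move lipids between membranes at contact sites. In all 4 genes the groups did not overlap, and the log2 changes lay within 0.20 to 0.31. VPS13A measured 57.3, 58.0 and 65.3 CPM in inPKI and 66.8, 70.3 and 86.9 CPM in PKI (0.30 ± 0.084). VPS13C measured 22.5, 24.5 and 22.3 CPM in inPKI and 27.4, 26.5 and 32.9 CPM in PKI (0.31 ± 0.081). In both, PKI C was well above the other PKI libraries, and without it their log2 changes were 0.19 ± 0.057 and 0.22 ± 0.066. VPS13D measured 42.8, 41.2 and 41.5 CPM in inPKI and 44.9, 46.9 and 52.8 CPM in PKI (0.20 ± 0.064), and VPS13B had a log2 change of 0.21 ± 0.075. Without PKI C these were 0.13 ± 0.050 and 0.13 ± 0.061.

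The PIK-related kinases ATM, ATR and PRKDC sense DNA damage or replication stress, and TRRAP is their kinase-dead relative in histone acetyltransferase complexes. PRKDC, which encodes the catalytic subunit of DNA-PK, measured 610.3, 601 and 606 CPM in inPKI and 709, 696 and 748 CPM in PKI. The groups stood well apart, with a log2 change of 0.24 ± 0.064. TRRAP measured 152, 146 and 151 CPM in inPKI and 181, 167 and 179 CPM in PKI (0.23 ± 0.054), and PKI A, not PKI C, was the highest. ATM measured 46.8, 46.7 and 50.9 CPM in inPKI and 51.8, 54.3 and 75.8 CPM in PKI. Its log2 change of 0.31 ± 0.10 leaned on PKI C and was 0.14 ± 0.053 without it. ATR, at 8249 nt the shortest of the 4, measured 34.5, 36.8 and 37.7 CPM in inPKI and 36.4, 38.3 and 38.4 CPM in PKI. Its groups overlapped, and its log2 change of 0.052 ± 0.059 was the smallest of the 45. Without inPKI A it was 0.017 ± 0.071.

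At the cell surface, LRP1 is an endocytic receptor, the FAT genes encode giant cadherins and the CELSR genes cadherins of planar cell polarity. The 6 log2 changes lay within 0.17 to 0.30, with a median of 0.25, and the groups did not overlap in 5. FAT1 measured 50.6, 46.0 and 48.3 CPM in inPKI and 58.1, 55.8 and 63.4 CPM in PKI (0.28 ± 0.062), and CELSR3 measured 51.1, 44.2 and 50.8 CPM in inPKI and 56.1, 51.3 and 57.3 CPM in PKI (0.17 ± 0.067). In FAT1 the PKI libraries were clear of inPKI, whereas in CELSR3 PKI B stood only just above inPKI A, and without inPKI B its log2 change was 0.11 ± 0.070. LRP1 had a log2 change of 0.30 ± 0.072, FAT4 0.25 ± 0.089 and CELSR2 0.21 ± 0.067. FAT3, the lowest of the 45 in CPM, rested on 119 to 200 reads per library and had 0.25 ± 0.13, with overlapping groups. Its log2 change was 0.13 ± 0.13 without PKI C and 0.15 ± 0.14 without inPKI C.

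The BEACH proteins LRBA and WDFY3 act in vesicle traffic and in the autophagy of protein aggregates, respectively. LRBA measured 59.8, 57.8 and 61.5 CPM in inPKI and 61.6, 61.9 and 63.4 CPM in PKI. PKI A stood barely above inPKI C, and the log2 change was 0.061 ± 0.053, or 0.039 ± 0.064 without inPKI B. WDFY3 measured 40.6, 38.1 and 43.6 CPM in inPKI and 48.0, 46.8 and 55.6 CPM in PKI, and its log2 change of 0.29 ± 0.072 was one of the larger ones.

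Chromatin genes had the lowest median among the groups of 4 or more genes, 0.19 (range 0.077 to 0.22). CHD8, a remodelling ATPase, measured 156, 147 and 153 CPM in inPKI and 170.0, 154 and 158 CPM in PKI, and PKI B lay below inPKI A. BPTF, the largest subunit of the NURF remodelling complex, measured 153, 150.2 and 156 CPM in inPKI and 167, 159.9 and 167 CPM in PKI. The log2 changes of these 2 genes, 0.077 ± 0.055 and 0.10 ± 0.051, were among the 4 smallest of the 45. Without PKI A that of CHD8 was 0.036 ± 0.062. CHD7, a relative of CHD8, had 0.22 ± 0.050, the cohesin loader NIPBL 0.20 ± 0.055, and EP400, an ATPase of the TIP60 complex, 0.19 ± 0.058.

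The remaining 5 genes have separate roles. MDN1, an AAA ATPase that strips assembly factors from the maturing large ribosomal subunit, measured 147, 137 and 133 CPM in inPKI and 173, 157 and 217 CPM in PKI. Its log2 change of 0.38 ± 0.090 was the second largest of the 45, and without PKI C it was 0.25 ± 0.050. NF1, which encodes the RAS inhibitor neurofibromin, measured 98.3, 93.9 and 102 CPM in inPKI and 119, 107 and 119 CPM in PKI (0.23 ± 0.058), with PKI A and PKI C level. NF1 has pseudogene copies, so its reads are uncertain. BRCA2, which acts in homologous recombination, had a log2 change of 0.27 ± 0.073, the basal body gene ALMS1 0.20 ± 0.052, and APC, the scaffold that limits beta-catenin, 0.11 ± 0.057, or 0.070 ± 0.046 without PKI C.

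Levels were compared between genes only per length, as CPM per kb of the chosen transcript over the 6 libraries. PRKDC led at 49.0 ± 4.72 (SD, n = 6), in a range of 44.5 to 55.4 that just overlapped that of HUWE1, at 33.3 to 44.9 with a mean of 37.9 ± 4.30. SPTAN1 (24.98 ± 1.43) and USP9X (23.9 ± 1.88) followed, with overlapping ranges. These SDs and ranges pool the PKI and inPKI libraries, and genes were not compared library by library. An overlap therefore does not show equal levels. The ranges of the alpha and beta spectrins did not overlap, SPTBN1 lying at 19.0 ± 0.969 CPM per kb, and CHD8 (18.5 ± 0.884) overlapped SPTBN1. The lowest were SYNE1 (0.755 ± 0.0601), FAT4 (0.672 ± 0.0816) and FAT3 (0.347 ± 0.0687), and the ranges of SYNE1 and FAT4 overlapped. Within families the order was wide: FAT1 stood at 3.64 ± 0.445 CPM per kb against FAT3 and FAT4 below 1, and SYNE2 at 1.78 ± 0.392 against SYNE1. Across the 45 genes the log2 change had no strong relation to the mean CPM (Spearman's rho -0.19, a description over genes that share the same 6 libraries).

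What the 45 genes did share with the rest of the transcriptome was the dependence on length. Over the tested genes outside the list, the log2 change went up with transcript length step by step. The median was -0.12 for the 1263 transcripts up to 1000 nt and -0.065 for those of 1000 to 2000 nt. It was 0.0049 at 3000 to 5000 nt, 0.085 at 7000 to 10000 nt, 0.14 for the 363 of 10000 to 15000 nt, and 0.21 for the 85 above 15000 nt. Of these 85, 77 had a log2 change above 0. The 25 listed genes of 10000 to 15000 nt had a median of 0.21 and the 17 above 15000 nt 0.25. Without PKI C these medians of the listed genes were 0.18 and 0.17. Within the list, with all 6 libraries in use, longer transcripts too had larger log2 changes. Spearman's rho was 0.62 with transcript length and 0.54 with coding length, over 45 genes that share the same 6 libraries. It was not computed without PKI C, and the list was drawn up to probe this trend, so it is a description. The correlation was 0.085 with untranslated length, 0.37 with exon number, 0.12 with gene span and -0.13 with GC content. Over the 12437 other coding genes tested it was 0.46 with transcript length, 0.43 with coding length, 0.26 with untranslated length, 0.28 with exon number, 0.32 with gene span and -0.12 with GC content.

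**Figure D2:**
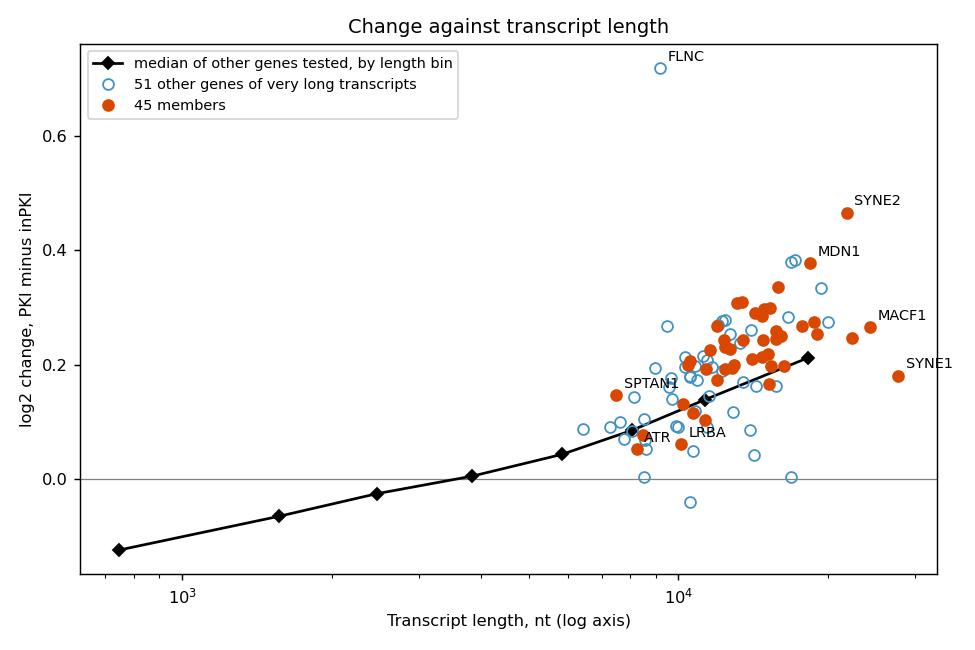
Log2 change, PKI minus inPKI, against transcript length in nt (log axis) for the 45 genes (filled points), for 51 other genes of very long transcripts (open points) and as the median of the other genes tested in 8 length bins (diamonds, at each bin's median length). The bin medians climb from -0.12 to 0.21, and the 45 genes lie between 0.052 and 0.47.

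When the length trend was taken out of each library (lowess on log10 length, span 0.3), the median log2 change of the 45 went from 0.23 to 0.064. Then 38 lay above 0 and 7 below: LRBA, ATR, BPTF, CHD8, PLEC, SYNE1 and APC. Of all 14275 genes tested 6934 lay above 0. The trend runs with the groups, so its removal may also take away a difference between PKI and inPKI. Farthest above the trend was SYNE2, at 0.24 ± 0.056 (SE), then MDN1 at 0.17 ± 0.063 and UBR4 at 0.15 ± 0.049. SYNE1, although longer than SYNE2, lay at -0.082 ± 0.066. Neither nesprin passed the threshold once the trend was removed (adjusted p = 0.221 for SYNE2 and 0.676 for SYNE1 in limma). After the removal 0 of the 45 passed an adjusted p of 0.05 in limma (0.0701% of all genes were called higher), and 8 had an unadjusted p below 0.05, where 10.2% of all genes did.

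Some very long transcripts encode proteins of ordinary size, and the genes outside the list were therefore sorted by both transcript and coding length. The differences between these strata were not tested. Among tested coding genes outside the list with transcripts over 10000 nt, the 82 that encode fewer than 500 residues had a median log2 change of 0.045. The 98 with 500 to under 1000 residues had 0.13, the 91 with 1000 to under 2000 had 0.16, and the 158 with 2000 or more had 0.19. Of the 82, 62.2% lay above 0, and of the 158, 94.3%. The median transcript lengths of these groups were close, 11518 nt in the first and 11748.5 nt in the last, and the median GC content was 41.0% and 46.1%. At 7000 to 10000 nt the medians of the same classes were 0.047, 0.078, 0.10 and 0.096 (190, 257, 301 and 139 genes), so the highest class was not the highest median. Within coding classes from 500 residues up, the median was also higher in longer transcripts. For 500 to under 1000 residues it was 0.036 at 5000 to 7000 nt, 0.078 at 7000 to 10000 nt and 0.13 above 10000 nt. For 1000 to under 2000 residues it was 0.056, 0.10 and 0.16, and for 2000 or more 0.069, 0.096 and 0.19. The class of 2000 or more does not hold coding size fixed, since its median size was 2096, 2325 and 3049.5 residues. Under 500 residues the median log2 change was 0.0084, 0.047 and 0.045, with no rise above 10000 nt. The 45 genes, which all encode more than 2000 residues, had 0.23. Whether the annotated long untranslated ends are the ones expressed in these cells was not tested.

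**Figure D3:**
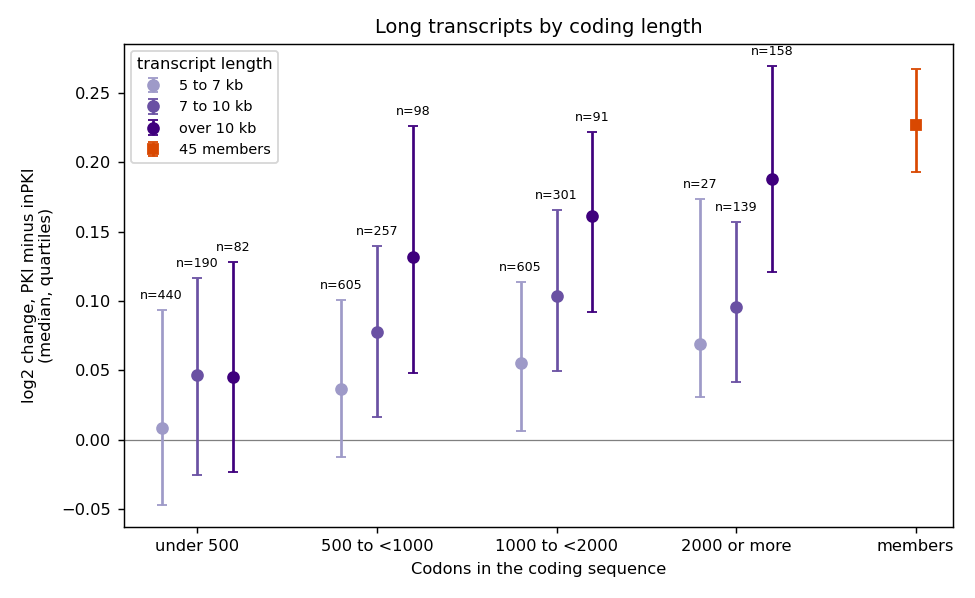
Median log2 change, PKI minus inPKI, with quartiles, for tested coding genes outside the list by codons in the coding sequence (horizontal axis) and transcript length (shades), with n above each bar, and for the 45 members. At over 10 kb the median climbs from 0.045 under 500 codons to 0.19 at 2000 or more, and the members lie at 0.23.

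The libraries did not carry the trend equally. Relative to each gene's mean over the 6 libraries on the log2(CPM + 1) scale, the median of the 45 genes was -0.082, -0.14 and -0.11 in the inPKI libraries A to C and 0.090, 0.030 and 0.23 in the PKI libraries A to C. PKI C was the highest of the 6 libraries in 36 of the 45 genes, where it was in 19.2% of all genes tested, PKI A in 7 and PKI B in 2. inPKI B was the lowest of the 6 in 29 of the 45 and in 16.6% of all genes. The spread within PKI was the wider one in 36 of the 45 (65.9% of all genes), with a median SD of log2(CPM + 1) of 0.11 in PKI and 0.056 in inPKI. For other genes above 15000 nt PKI C stood at 0.24, and for those up to 1000 nt at -0.14, the steepest course of the 6. PKI C is also the library with the fewest reads and the lowest CPM sum, and the part of these in the result was not tested.

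**Figure D4:**
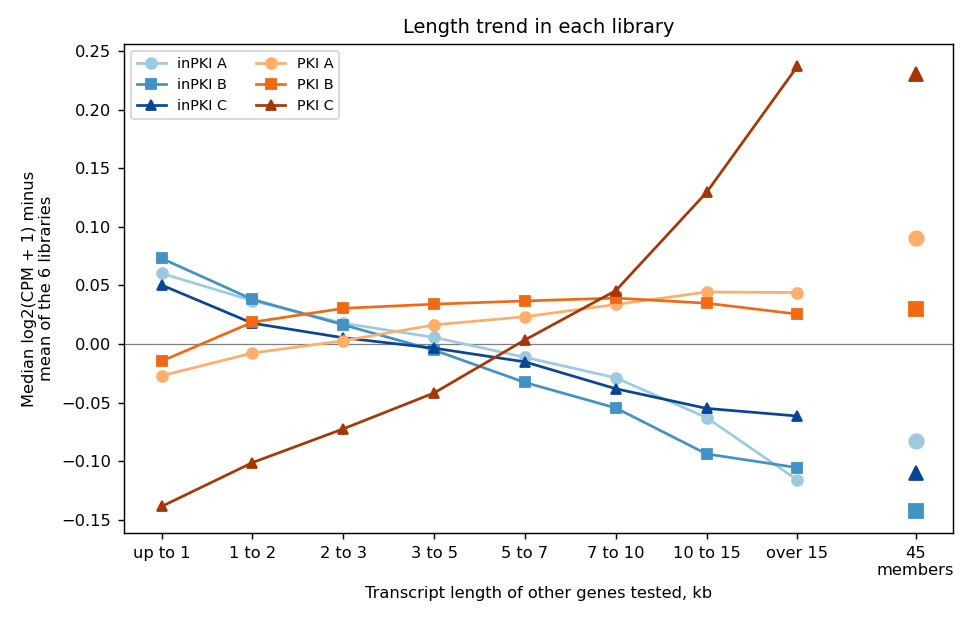
Median of log2(CPM + 1) minus the mean over the 6 libraries, for each library (lines), by transcript length of the other genes tested in kb, and for the 45 members (points at the right). The 3 inPKI lines go down with length, PKI C climbs from -0.14 to 0.24, and PKI A and PKI B change less.

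Leaving out PKI C made most differences smaller. Then 45 of the 45 log2 changes lay above 0 (56.2% of all genes), with a median of 0.17, and 14 were smaller by over 1.5 times: PLEC, HERC2, ATM, FAT3, HERC1, AHNAK, HECTD4, VPS13B, APC, UTRN, VPS13A, RNF213, MDN1 and VPS13D. Without it 5 genes (SYNE2, UBR4, CHD7, TRRAP and PRKDC) passed an adjusted p of 0.05 in limma (0.245% of all genes higher). In 41 genes both PKI A and PKI B lay above each inPKI library, as in 18.0% of all genes tested. Over the other genes the medians of the length bins kept their order, from -0.086 up to 1000 nt to 0.13 above 15000 nt. Those of the listed genes did not above 10000 nt, with 0.18 at 10000 to 15000 nt and 0.17 above 15000 nt. With PKI A and PKI C both left out, an alternative chosen after seeing the data in which the lone PKI B is assumed to vary like the other libraries, 45 of 45 lay above 0 (59.4% of all genes) with a median of 0.14, and 2 passed, SYNE2 and PRKDC (0.161% of all genes higher). In that comparison 23 of the 45 log2 changes were smaller by over 1.5 times. Since the list was chosen on this contrast, these counts are a description too. Without PKI B 11 passed (0.588% of all genes higher) and without PKI A only SYNE2 did (0.175%). With inPKI A, B or C left out 0 of the 45 passed, where 11, 9 and 14 of all genes were called in either direction.

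Many of the giant proteins work with smaller partners, and 34 such partner genes, fixed with earlier results of the data known, allowed a comparison within complexes. The partner transcripts ran from 1730 to 10598 nt, with a median of 3890.0 nt, each shorter than that of its giant partner. Their median log2 change was -0.026, with 13 above 0 and 21 below, where 47.4% of all genes tested lay above 0. The sign of this median depended on PKI C. Without that library it was 0.014, with 21 above 0 and 13 below, where 56.2% of all genes lay above 0. In limma 0 of the 34 passed an adjusted p of 0.05, and 1 had an unadjusted p below 0.05, MRE11, a nuclease subunit that works with ATM, at 31.6, 31.9 and 30.8 CPM in inPKI and 33.3, 34.9 and 41.4 CPM in PKI. In 34 of 34 pairs the log2 change of the giant was above that of its partner, by 0.029 to 0.44 with a median of 0.21. The pairs share members (18 giants) and libraries. Each giant had been above 0 and each partner was the shorter one, under a trend with length, so this order was largely set beforehand. Nothing is read from the count of pairs. With the length trend removed the partners had a median of -0.036, with 10 above 0 and 24 below.

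DNA-PK is an example. Its catalytic subunit gene PRKDC had a log2 change of 0.24 ± 0.064, while the genes of its Ku subunits, XRCC5 and XRCC6, had -0.034 ± 0.067 and -0.061 ± 0.074 (SE). XRCC5 measured 481, 483 and 474 CPM in inPKI and 493, 488 and 426 CPM in PKI. XRCC6 measured 741, 738 and 722 CPM in inPKI and 733, 748 and 635 CPM in PKI. In both, PKI C was the only PKI library below the inPKI range. Likewise TRRAP stood at 0.23 ± 0.054, and the ATPase genes RUVBL1 and RUVBL2 of the same complexes at -0.079 ± 0.061 and -0.090 ± 0.064. SYNE2 stood at 0.47 ± 0.086, and SUN2, which holds nesprins from inside the nuclear envelope, at 0.022 ± 0.056. MDN1 had 0.38 ± 0.090, and NLE1, a ribosome assembly factor that MDN1 removes, -0.031 ± 0.075. NLE1 measured 58.7, 55.5 and 59.7 CPM in inPKI and 61.9, 59.8 and 49.2 CPM in PKI, with only PKI C below the inPKI range. The partners closest to their giants were AXIN1 (0.085 ± 0.053, with APC at 0.11 ± 0.057) and ATRIP (0.017 ± 0.083, with ATR at 0.052 ± 0.059). SKP1, annotated with 9474 nt but encoding a small protein, had -0.11 ± 0.065, and LRPAP1, annotated with 10598 nt, -0.035 ± 0.060, the chaperone of LRP1 (0.30 ± 0.072).

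**Figure D5:**
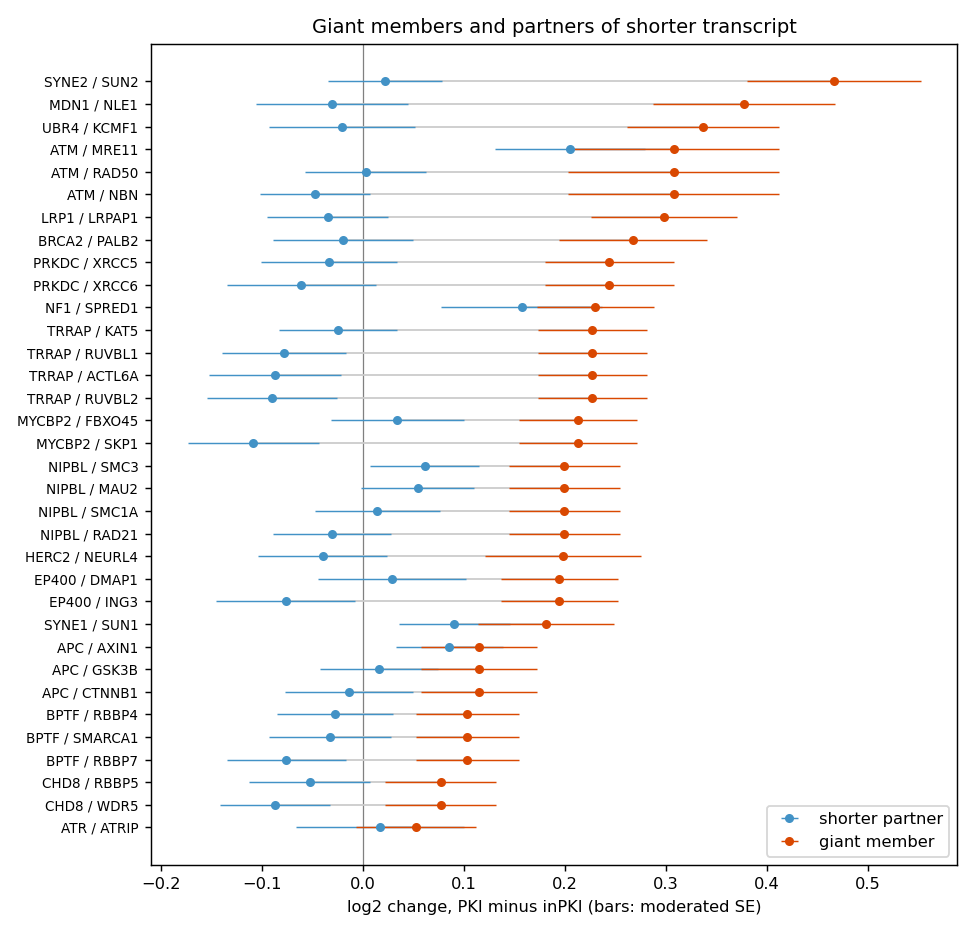
Log2 change, PKI minus inPKI, of giant members (orange) and of their partners of shorter transcript (blue) in 34 pairs, with moderated SE bars. In each pair the giant lies to the right of its partner, by 0.029 (APC and AXIN1) to 0.44 (SYNE2 and SUN2).

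A further 51 genes of very long transcripts, listed with the same knowledge and spanning 6423 to 20003 nt, had a median log2 change of 0.17. Of these 50 lay above 0 and 1 below, TNRC18 at -0.041 ± 0.057, where 47.4% of all genes tested lay above 0. In limma 1 of the 51 rose at an adjusted p of 0.05, FLNC, the gene of the muscle-type filamin that cross-links actin, and 0 fell. FLNC measured 58.9, 58.9 and 59.4 CPM in inPKI and 101, 96.0 and 96.4 CPM in PKI. Its log2 change was 0.72 ± 0.051 (adjusted p = 4.19e-06 in limma), and unlike most of the 45 it was not highest in PKI C. By p-value, the next was the histone methyltransferase gene KMT2C at 0.38 ± 0.072 (adjusted p = 0.0568 in limma), then AKAP13 (0.27 ± 0.059), MGA (0.27 ± 0.061) and the dynein heavy chain gene DYNC1H1 (0.27 ± 0.065). KMT2C measured 77.7, 70.4 and 79.5 CPM in inPKI and 95.2, 91.2 and 111 CPM in PKI, with PKI C highest.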

How the data were processed

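The authors deposited CPM for 30960 genes in 6 libraries, and the deposited file's name gives RSEM, CPM and TMM. Per the submitters' processing notes the build was hg19, and the tools included RSEM 1.3.0 and STAR 2.5.2b, besides DESeq2 1.20.0 and cutadapt 1.14; use of strand is not given in the sources used here. The CPM were whole multiples of the smallest value in each column (100% within a tolerance of 0.01 reads), and whole reads were recovered by division. They may be rounded RSEM estimates. The authors' own comparison table was not used here.

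Changes are on the log2(CPM + 1) scale, where those of low genes come out too small, for 14275 genes with at least 1 CPM in at least 3 libraries. PKI was compared with inPKI with R 4.3.3 and limma 3.58.1 (trended empirical Bayes, 2-sided, Benjamini-Hochberg adjustment over all genes tested, threshold 0.05), which was tried on simulated data. Log2 changes carry the moderated SE. Lengths come from GENCODE 29 on GRCh38 by gene identifier (30795 matched, 165 did not).

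Members and lists were chosen with earlier results of these data known. Of the partner genes and of the other long genes, 1 each is not reported here and enters no count of its list. Library values are printed for the 2 members of each role group with the highest mean CPM and for the 5 largest and 3 smallest log2 changes. From the partner genes and the other long genes, those past the threshold and up to 6 with the smallest p could be named. Other genes named in pairs, and the library values of SYNE1, AHNAK, XRCC5, XRCC6 and NLE1, were chosen after their values were seen. Alternatives were pseudocounts of 0.25 and 5, other filters and scalings, a replicate block, removal of the length trend, edgeR 4.0.16 and DESeq2 1.42.0 on recovered reads, and leaving out libraries. Figures were drawn with matplotlib 3.10.9.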

Additional observations from a re-analysis of the deposited data

How the results depend on the processing

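The direction of the 45 genes held in 45 of 45 under every alternative run except removal of the length trend, where 38 lay above 0. The median log2 change of the 45 was 0.23 as reported, and the spread between libraries was taken as an SD of 0.068. The median moved by more than this only without both PKI A and PKI C (0.14) and with the length trend removed (0.064). Without PKI C alone it was 0.17, within that spread, though 14 of the 45 log2 changes were then smaller by over 1.5 times. The median of all genes shifted by less than 0.1 under each alternative. With the length trend removed 7 of the 45 reversed: SYNE1 (-0.082), LRBA (-0.057), ATR (-0.035), BPTF (-0.032), CHD8 (-0.015), APC (-0.012) and PLEC (-0.012); the subtraction of a trend larger than their own log2 change makes them so. For the 21 genes that the rule chose for library values (SYNE1, APC and PLEC are not among them), 357 values under 17 alternatives were compared, of which 322 kept direction and side of the threshold, 31 came to pass it and 4 reversed. The count of the 45 called higher, 0 as reported, was 1 with the 5 CPM filter (SYNE2; 0.180% of the 11088 genes left), 20 by DESeq2 (0.771% of all genes), 2 without PKI A and PKI C (0.161%), and 0 to 11 with 1 library left out; the count called lower was 0 throughout. The count of all genes called, 18 as reported, was 4 with no filter, 11 with equal-sum scaling, 10 with the length trend removed, 11 by edgeR, 216 by DESeq2, 49 without PKI A and PKI C, and 9 to 114 with 1 library left out. The causes of these differences between counts were not tested.

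The letters A, B and C are shared by the groups, but nothing says that they pair libraries. Deviations of same-letter libraries from their group means correlated at 0.014 to 0.028 across genes, under 0.1, and each library correlated best with its own letter. With a replicate block 124 genes were called in all (0.715% higher), 13 of the 45 among them. FAT3 is the member that depth limits most, at 119 to 200 reads per library.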
